A study of Mus musculus with 8 samples.

Results

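Cluster 4 was 1 of 7 populations sorted from the stroma of mouse bone marrow, and its RNA-seq library was compared with those of clusters 1, 2, 3, 5, 6 and 7. Each population had 1 library, so the comparison was made within 7 of the 8 libraries of the series, and the library of the input bone marrow was left out of it. Of 49312 genes left after 3 loci were omitted, the 13386 with at least 50 counts in cluster 4 were described. For each gene, log2(RPKM + 1) in cluster 4, where RPKM is the number of reads per kilobase of exon, scaled to the counted reads of the library, was set against the median and against the highest of the other 6 libraries, and these values are called log2 differences.

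All 8 libraries were labelled as wild-type C57BL/6J mice with an age of 6 weeks, whereas the Methods name the strain C57BL/6JJcl. The gates that follow were read by eye from the flow cytometry plots of the study. Cluster 4 was gated as negative for CD31, CD45 and Ter119, negative for Ly-6C and CD24, and positive for CD54, the protein of Icam1. Cluster 1 was gated as CD24-negative, Sca-1-positive and CD39-positive, cluster 2 as negative for Ly-6C, CD24 and CD39, and cluster 3 as positive for Ly-6C and CD24 and negative for CD39 and CD54. Cluster 5 was gated as CD54-positive and negative for CD24, Ly-6C and CD121b, cluster 6 as CD24-positive and negative for Sca-1 and CD39, and cluster 7 as Sca-1-positive and negative for CD54, CD24 and Ly-6C. With 1 library for each population there was no spread between replicates, no test was possible, and the intervals given below cover counting error only. In the Methods, femur, tibia and ilium were crushed, the filtered wash was thrown away, and cells were released from the bone fragments with collagenase. The labels describe RNA of crushed bone marrow, whereas the Methods describe RNA of sorted cells from mice that could be older than the label states. In such bulk libraries, fewer cells of a type and less RNA per cell cannot be told apart.

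Stromal cells around the sinusoids of the bone marrow supply CXCL12, the chemokine that retains haematopoietic stem and progenitor cells, and stem cell factor, encoded by Kitl. Many of these cells carry the leptin receptor and are adipocyte-primed, expressing Adipoq, the gene of the fat hormone adiponectin, without storing lipid. Others from the same mesenchymal lineage become osteoblasts, which lay down a matrix of type I collagen and osteocalcin, or chondrocytes, which make type II and type IX collagen and aggrecan.

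The genes with the highest levels in cluster 4 relative to the other populations had promoters of different composition. The 250 bases before the RefSeq start (build GRCm38.p6) are shown 5′ to 3′ on the strand of the gene for 3 marker genes of cluster 4, Cxcl12, Adipoq and Apoe, and for 3 others that were at least 2-fold above every other library on the RPKM + 1 scale. Capitals mark matches on either strand to the C/EBP motif TTGCNNAA, the EBF motif CCCNNGGG, the GC box GGGCGG and the CCAAT box, spelled CCAAT. Matches of different motifs did not overlap in these promoters, and the last pair of GC boxes of Cxcl12 share 1 base. The last 2 motifs, and Kng2, Gdpd2 and Ptx3, were chosen after the sequences were seen.
Cxcl12, chr6:117168285-117168534, plus strand, 5 GC boxes: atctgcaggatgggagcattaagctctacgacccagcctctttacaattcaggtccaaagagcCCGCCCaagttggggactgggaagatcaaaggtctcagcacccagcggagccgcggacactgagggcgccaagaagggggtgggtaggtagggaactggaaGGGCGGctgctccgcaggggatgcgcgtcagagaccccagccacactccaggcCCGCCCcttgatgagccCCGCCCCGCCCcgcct
Adipoq, chr16:23146286-23146535, plus strand, 3 CCAAT boxes: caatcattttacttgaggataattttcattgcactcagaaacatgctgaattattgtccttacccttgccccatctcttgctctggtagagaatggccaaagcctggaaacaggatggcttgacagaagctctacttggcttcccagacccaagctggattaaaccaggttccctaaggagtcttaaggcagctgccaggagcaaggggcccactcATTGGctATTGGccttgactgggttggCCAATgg
Apoe, chr7:19699189-19699438, minus strand, 1 EBF match: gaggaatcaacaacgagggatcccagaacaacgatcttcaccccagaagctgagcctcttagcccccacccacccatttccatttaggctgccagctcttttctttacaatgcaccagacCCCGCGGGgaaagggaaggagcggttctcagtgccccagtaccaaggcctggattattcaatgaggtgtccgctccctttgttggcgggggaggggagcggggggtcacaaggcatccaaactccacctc
Kng2, chr16:23029102-23029351, minus strand, 1 C/EBP match: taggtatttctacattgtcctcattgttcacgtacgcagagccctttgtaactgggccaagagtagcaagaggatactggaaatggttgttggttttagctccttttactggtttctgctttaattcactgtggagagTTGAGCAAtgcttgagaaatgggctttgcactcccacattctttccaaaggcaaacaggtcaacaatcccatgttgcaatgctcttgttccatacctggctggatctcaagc
Gdpd2, chrX:100729597-100729846, plus strand, 2 C/EBP matches and 1 CCAAT box: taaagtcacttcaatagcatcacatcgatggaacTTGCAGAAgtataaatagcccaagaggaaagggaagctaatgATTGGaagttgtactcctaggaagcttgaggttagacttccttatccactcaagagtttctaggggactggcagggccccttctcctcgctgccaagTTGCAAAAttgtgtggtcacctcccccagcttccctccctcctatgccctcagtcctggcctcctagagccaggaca
Ptx3, chr3:66219637-66219886, plus strand, 1 C/EBP match: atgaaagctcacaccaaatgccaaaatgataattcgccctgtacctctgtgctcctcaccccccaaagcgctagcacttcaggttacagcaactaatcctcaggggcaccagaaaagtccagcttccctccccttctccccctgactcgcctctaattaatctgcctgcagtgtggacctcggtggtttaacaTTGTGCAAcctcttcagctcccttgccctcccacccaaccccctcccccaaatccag

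The promoter of Adipoq held 0 CpG dinucleotides and that of Cxcl12 held 14, against a median of 16 in the 9013 described genes with a RefSeq promoter and of 4 in the 13 such genes more than 1 above every other library, whose median GC content was 54% against 60%. The motif shares that follow were not adjusted for this difference. Of the 24 genes more than 1 above every other library, 13 had a RefSeq promoter, and 5 of these 13 (Serpina3f, Kng2, Gdpd2, Ptx3 and Serpina1e) held the C/EBP motif, against 7.29% of the 9013 promoters. The GC box was held by 4 of the 13 and by 59.8% of the 9013, the CCAAT box by 5 of the 13 and by 36.2%, the EBF motif by 1 of the 13 and by 16.0%, the AP-1 motif TGANTCA by 0 of the 13 and by 4.32%, and the NF-kB consensus by 1 of the 13 and by 8.98%. In the 240 promoters of genes more than 1 above the median, the shares were 15.8% for C/EBP, 48.3% for the GC box and 32.1% for the CCAAT box. They were 19.6% for EBF, 9.17% for AP-1 and 10.8% for NF-kB, each above the share of all promoters. The numbers for EBF, AP-1 and NF-kB in the 13, which were 1, 0 and 1, were too small to be set against that share. In the 49 promoters of genes more than 1 below the median, the shares were 6.12%, 51.0%, 36.7%, 26.5%, 10.2% and 6.12% in the same order. EBF and AP-1 were thus above the share of all promoters, and the GC box below it, in the lower genes too. The promoters of the 240 and of the 49 each had a median of 8 CpG dinucleotides, with a median GC content of 57.8% and 57.2%. All these shares describe letters in a window of 250 bases and not bound sites.

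The library of cluster 4 was the second deepest of the 7. It held 32549319 counts, and the totals of the sorted clusters ranged from 12833648 (cluster 5) to 33238133 (cluster 7). Of its counts, 1.01% fell on the 3 loci omitted throughout (Lars2, Rn18s-rs5 and mmu-mir-689-2), against 34.8% for cluster 5 and 10.4% for cluster 2. Haemoglobin genes held 0.173% of the remaining counts in cluster 4 and 1.12%, 1.13%, 0.565%, 7.996%, 0.122% and 0.563% in clusters 1, 2, 3, 5, 6 and 7. Mitochondrial genes held 0.580% in cluster 4 and 4.73% in cluster 5. Cluster 5, the other CD54-positive population, therefore stood apart in depth and composition.

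Transcripts of the sort markers only partly followed the gates. Icam1, the gene of CD54, was at 239 RPKM in cluster 4 and at 75.4, 15.1, 11.6, 68.3, 19.9 and 150 in clusters 1, 2, 3, 5, 6 and 7. It was thus highest in a CD54-positive population, but cluster 7, gated as CD54-negative, had more Icam1 than the CD54-positive cluster 5. Cd24a was at 53.6 RPKM in cluster 4, between 50.7 in cluster 3 and 56.7 in cluster 1, while cluster 6, gated as CD24-positive, was at 139 and cluster 2, gated as CD24-negative, at 141. Ly6c1, a Ly-6C gene, was at 123 RPKM in cluster 4 although it was gated as Ly-6C-negative, below 416 in cluster 3 and 215 in cluster 1. Ly6a, which encodes Sca-1, was at 435 RPKM, below 946 in cluster 3 and 601 in cluster 1. Reads of Ly6c1, Ly6c2 and Ly6a are uncertain because these genes are close in sequence. Pecam1, the gene of CD31, was at 1.51 RPKM and Ptprc, the gene of CD45, at 2.79.

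More genes were far above than far below the median of the other populations in cluster 4, whereas fewer were highest than lowest by any margin. Of the 13386 genes, which were filtered on the counts of cluster 4 itself, 373 (2.79%) were more than 1 above the median of the other libraries and 24 (0.179%) more than 1 above the highest of them. By any margin, 1176 genes (8.79%) were highest and 1246 (9.31%) lowest in cluster 4. In the other direction, 98 genes (0.732%) were more than 1 below the median and 1, Car2, was more than 1 below the lowest (0.00747%). Without the filter on counts, 476 genes were more than 1 above the median and 218 more than 1 below it. The median log2 difference of all 13386 genes from the median of the other 6 was -0.02. Of the 373 genes, 218 were highest in cluster 4 by any margin and 52 were more than 1 below another library. Their next-highest or highest other library was most often cluster 7 (141 genes) or cluster 1 (89), and less often clusters 2 (49), 5 (44), 6 (37) and 3 (13). Cluster 7 was this library for 37.8% of the 373 and 26.2% of all genes, and cluster 1 for 23.9% and 20.1%. Without cluster 7, the counts were 561 above the median, 49 above the highest, 155 below the median and 3 below the lowest. Without cluster 5 they were 428, 34, 111 and 1.

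**Figure D1:**
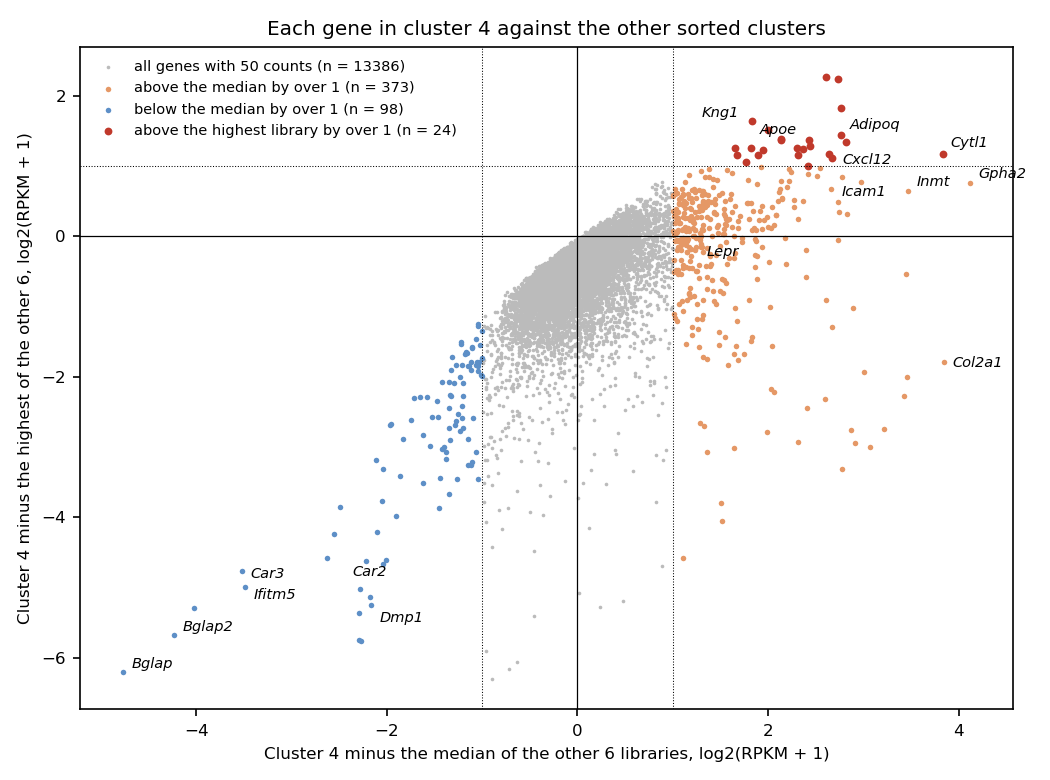
Log2 difference of each of the 13386 genes in cluster 4 from the median (horizontal axis) and from the highest (vertical axis) of the other 6 libraries, in log2(RPKM + 1). The 373 genes above the median by over 1 are spread from the 24 above every library, such as Adipoq, Apoe, Cxcl12 and Cytl1, down to genes such as Col2a1 that were higher elsewhere, and Bglap and Bglap2 lie at the lower left.

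3 of the 4 marker genes of the population were above every other library by more than 1 (against 0.179% of all genes). The markers were chosen with earlier results of these data known, and cluster 4 was gated on CD54, the protein of Icam1. Their high levels are thus a description and no support for a trait of the population. Adipoq was at 29.9 RPKM in cluster 4 and at 3.39, 1.85, 3.69, 10.4, 0.464 and 4.39 in clusters 1, 2, 3, 5, 6 and 7. The ratio to cluster 5, the next library, was 2.88 (exact binomial 95% interval 2.39 to 3.50), with log2 differences of 2.77 from the median and 1.44 from the highest, or 2.52 from the highest without cluster 5. Adiponectin is secreted by fat cells and by adipocyte-primed marrow stroma. Cxcl12 was at 141 RPKM in cluster 4 and at 34.1, 13.1, 11.9, 64.4, 5.12 and 48.6 in clusters 1, 2, 3, 5, 6 and 7. Its ratio to cluster 5 was 2.18 (2.12 to 2.25), with log2 differences of 2.67 and 1.12, the latter 1.51 without cluster 5. For both genes, the second level was thus in the other CD54-positive population and the lowest in cluster 6. Cxcl12 was 0.93 above cluster 5 when mitochondrial and haemoglobin genes, which held more of the counts in cluster 5 than in any other library, were also omitted.

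Apoe, which encodes the lipoprotein component apolipoprotein E, was at 521 RPKM in cluster 4 and at 94.0, 97.4, 28.9, 125, 62.5 and 201 in clusters 1, 2, 3, 5, 6 and 7. Its ratio to cluster 7 was 2.60 (2.55 to 2.65), with log2 differences of 2.43 and 1.37. The fourth marker, Icam1, an adhesion receptor for leukocyte integrins, had a log2 difference of 2.66 from the median but only 0.67 from cluster 7, a ratio of 1.59 (1.57 to 1.62). Without cluster 7, the log2 difference of Icam1 from the highest library was 1.65. Over all settings tried, the log2 difference from the median ran from 2.72 to 3.04 for Adipoq, 2.41 to 2.65 for Apoe, 2.01 to 3.33 for Cxcl12 and 1.79 to 3.52 for Icam1. The lowest values of Cxcl12 and Icam1 were those without cluster 2, 3 or 6, and the highest those without cluster 1, 5 or 7.

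The other genes above every library included Chi3l1, Ptx3, C4b and Penk, which encode secreted proteins. Chi3l1, a chitinase-like glycoprotein, was at 173 RPKM in cluster 4 and 6.77, 26.2, 7.98, 46.8, 44.8 and 71.5 in clusters 1, 2, 3, 5, 6 and 7, a log2 difference of 1.26 from the highest. Ptx3, a soluble pattern recognition protein, was at 106 RPKM and at 33.0, 8.75, 32.8, 35.9, 1.87 and 43.5 in the same order, and C4b, a complement component, at 87.7 and at 28.2, 5.92, 20.5, 12.9, 5.39 and 36.3. All 3 had cluster 7 as the next library, at ratios of 2.42 (2.35 to 2.49), 2.43 (2.34 to 2.52) and 2.41 (2.35 to 2.48). Penk, the precursor of the enkephalin opioid peptides, was at 243 RPKM in cluster 4, against 109 and 108 in clusters 7 and 1 and 11.8 in cluster 6. The chemokine gene Ccl19 was at 12.0 RPKM, against 4.56 in cluster 7, and its reads are uncertain because near-identical copies exist. Gdpd2, a glycerophosphodiester phosphodiesterase, was at 3.89 RPKM against 1.04 in cluster 5, and Crtac1, a cartilage acidic protein, at 5.23 against 1.78 in cluster 5. Without cluster 5, their log2 differences from the highest library were 1.46 and 1.17.

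Matrix genes completed the set. Col8a1, a network-forming collagen, was at 206 RPKM in cluster 4, against 98.7, 88.0 and 74.1 in clusters 5, 7 and 1 and 5.52 in cluster 6. Eln, which encodes elastin, was at 107 RPKM in cluster 4, against 53.1 and 45.4 in clusters 7 and 1 and 1.43 in cluster 6. Both lay just inside the limit, with log2 differences of 1.05 (1.22 without cluster 5) and 1.00 from the highest library, and Hmox1 (0.99), Mfap4 (0.97) and Gm17056 (0.96) lay just outside it. Hmox1, the haem-degrading enzyme, was at 288 RPKM in cluster 4 and 145 in cluster 5. Of the 24 genes, 5 had no symbol, and some of these had the largest log2 differences from the highest library, above every named gene. They were 2.27 (chr6:69648824-69649363), 2.24 (chr12:114657353-114657786) and 1.82 (chr6:68736297-68736780), at 60, 96 and 243 counts in cluster 4. Igkv3-10 (chr6:70572633-70573230), a segment of the immunoglobulin kappa locus with 101 counts, was uncertain for its near-identical neighbours. The next-highest library was cluster 7 for 12 of the 24, and clusters 5 and 6 for 8 and 4.

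**Figure D2:**
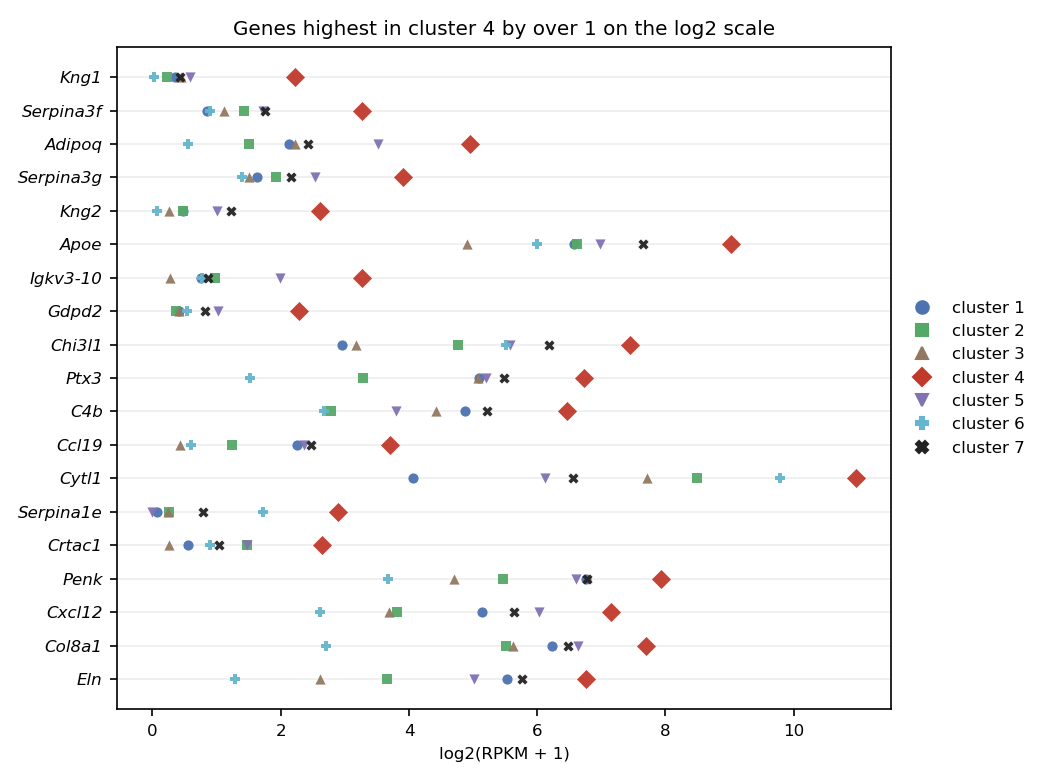
Level of each of the 19 genes with a symbol that were more than 1 above every other library, as log2(RPKM + 1) (horizontal axis), with 1 point for each of the 7 sorted libraries. The diamond of cluster 4 lies to the right of all others in each row, and the next point is usually cluster 7 or cluster 5.

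A pair of genes on chromosome 16 stood out. Kng2 (chr16:22985854-23029101) and Kng1 (chr16:23057865-23082068), which encode kininogens, the precursors of bradykinin, lie close to each other and upstream of Adipoq (chr16:23146536-23158028). Kng1 was at 3.65 RPKM in cluster 4 and at 0.280, 0.167, 0.368, 0.492, 0.0203 and 0.344 in clusters 1, 2, 3, 5, 6 and 7. Kng2 was at 5.08 RPKM in cluster 4, 1.35 in cluster 7, 1.00 in cluster 5 and at most 0.386 in the other 4 libraries. Kng1 had the largest log2 difference from the highest library of any gene with a symbol, 1.64, and a ratio of 7.43 to cluster 5, with an interval of 4.29 to 14.1, at 372 counts in cluster 4 and 13 in cluster 5. Without cluster 5, this log2 difference was 1.77. Reads of Kng1 and Kng2 may be shared, since the genes are close copies. The genes with 50 counts between Kng1 and Adipoq did not share the pattern, with log2 differences from the median of 0.07 for Eif4a2, a translation factor at 21.8 RPKM, and -0.19 for Rfc4, a replication factor at 6.64 RPKM. St6gal1, a sialyltransferase downstream of Adipoq, was at 2.72 RPKM with a log2 difference of 0.01. Within 300 kb of Adipoq, 7 of 25 genes had 50 counts in cluster 4. This neighbourhood was examined after the values had been seen.

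**Figure D3:**
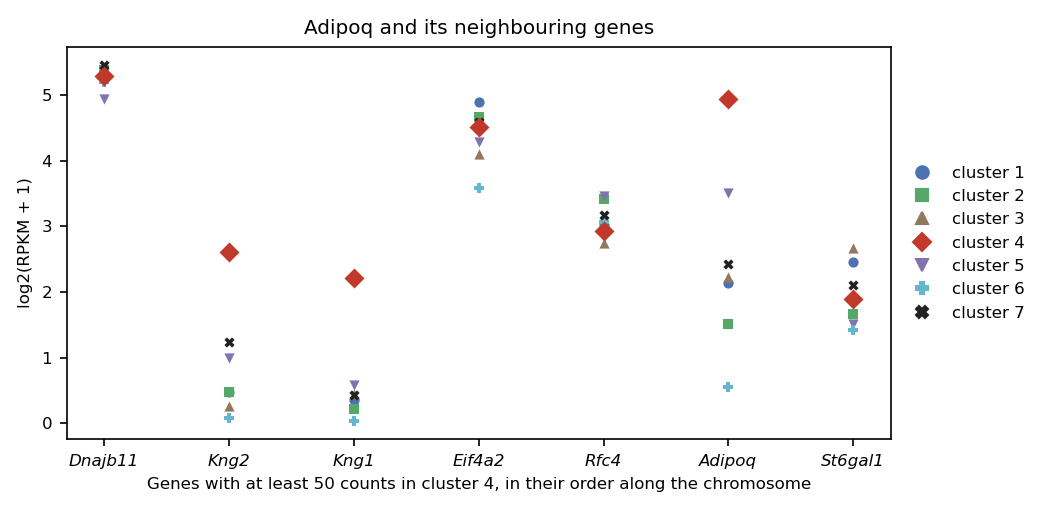
Level of the 7 genes within 300 kb of Adipoq with at least 50 counts in cluster 4, as log2(RPKM + 1) (vertical axis), in their order along the chromosome (horizontal axis), with 1 point for each sorted library. Cluster 4 stands above the other libraries for Kng2, Kng1 and Adipoq and among them for Dnajb11, Eif4a2, Rfc4 and St6gal1.

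Serpin genes of clade A, secreted protease inhibitors, were also high in cluster 4. Of 28 measured, 9 had 50 counts in cluster 4, all 9 lay on chromosome 12, were more than 1 above the median (against 2.79% of all genes), and 6 were highest in cluster 4 (against 8.79% of all genes). Serpina3n, the most abundant, was at 52.2 RPKM in cluster 4 and at 23.5, 13.4, 7.23, 19.8, 8.69 and 27.6 in clusters 1, 2, 3, 5, 6 and 7. Serpina3g was at 14.04 RPKM against 4.77 in cluster 5, and Serpina3f at 8.63 against 2.38 in cluster 7. The antitrypsin genes had another order, with Serpina1d at 10.4 RPKM in cluster 4, 10.9 in cluster 6 and 8.68 in cluster 2, and Serpina1e at 6.41 in cluster 4 and 2.30 in cluster 6. These genes are near-identical copies, so that the split of reads between them is uncertain. The family was chosen after its values had been seen, and members entered only with 50 counts in cluster 4, where they were high, so that these counts are a description and no support for a pattern of the family. With TMM or DESeq2 scaling, Serpina1e was no longer more than 1 above cluster 6 (lowest log2 difference 0.95). Without cluster 6, it was 2.10 above the highest library.

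Among the haematopoietic niche genes, the chemokine gene Cxcl12 had the largest log2 difference from the median in cluster 4, whereas Spp1, the gene of osteopontin, was the most abundant at 1327 RPKM. Of 21 listed niche factors and regulators, all had 50 counts, 5 were more than 1 above the median (against 2.79% of all genes), 0 were more than 1 below it and 3 were highest in cluster 4 (not far from the share of all genes, 8.79%), with a median log2 difference of 0.43. The 5 were Cxcl12, Cxcl14, Lepr, Vcam1 and Pdgfrb, and 3 of 21 remained past 1 without cluster 2, cluster 3 or cluster 6. Cxcl14, a chemokine made by stroma, was at 176 RPKM in cluster 4 and at 63.1, 56.1, 10.1, 123, 35.3 and 118 in clusters 1, 2, 3, 5, 6 and 7. Lepr, the leptin receptor, was at 11.04 RPKM, below 12.4 in cluster 7 and above 7.11 in cluster 5. Vcam1, an adhesion molecule, was at 26.2 RPKM, next to 26.7 in cluster 7 and 21.4 in cluster 5. Cluster 4 thus shared Lepr and Vcam1 with clusters 7 and 5, whereas its level of Cxcl12 was above both.

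Other niche factors were within 1 of the median in cluster 4. Kitl was at 4.797 RPKM in cluster 4, against 5.64 and 5.46 in clusters 5 and 1, a log2 difference of 0.46 from the median. Il7, a lymphoid growth factor, was at 1.61 RPKM (0.34), Csf1, the macrophage growth factor, at 35.6 (0.67), and Angpt1, a ligand of the Tie2 receptor, at 3.60 (0.44). The transcription factors Ebf3 and Foxc1, which maintain niche cells, had log2 differences of 0.45 and 0.06, at 1.18 and 23.2 RPKM.

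Adipocyte genes were divided. Of 27 listed, 21 had 50 counts in cluster 4, 7 of these were more than 1 above the median (against 2.79% of all genes) and 2 more than 1 below it (against 0.732% of all genes), and 7 were highest in cluster 4 (against 8.79% of all genes). The median over the 21 was 0.20, or 0.33 with TMM, 0.35 with DESeq2 and 0.39 with the 3 loci kept. With TMM or DESeq2 scaling, 8 were more than 1 above the median and 1 more than 1 below it. Beside Adipoq, Apoe and Gdpd2, Lpl, the lipase that releases fatty acids from lipoproteins, was at 31.8 RPKM in cluster 4 and at 14.98, 4.02, 1.82, 10.007, 1.01 and 21.4 in clusters 1, 2, 3, 5, 6 and 7. Cebpd, a transcription factor of early adipogenesis, was at 199 RPKM against 143 in cluster 7 and 136 in cluster 1, and Esm1, a secreted proteoglycan, at 9.29 against 7.30 in cluster 5. Pparg, the master regulator of fat cells, was at 1.84 RPKM, beside 1.94 in cluster 5 and 1.55 in cluster 1, a log2 difference of 0.55 from the median. Plin1 and Cidec, which coat lipid droplets, had 17 and 2 counts in cluster 4, and at most 14 and 32 in another library. Fabp4, a fatty acid carrier, was at 5.19 RPKM in cluster 4, 1.62 in cluster 6 and between 7.26 and 22.2 in clusters 1, 2, 3, 5 and 7, and Cd36, a fatty acid transporter, was at 1.41, the lowest of the 7 libraries. Both are also expressed in endothelial cells, whose defining gene Cdh5 was at 0.236 RPKM in cluster 4. The part of endothelial cells in the levels of Fabp4 and Cd36 was not tested.

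Of 18 lipoprotein and cholesterol genes, all with 50 counts, 5 were more than 1 above the median (against 2.79% of all genes) and 0 more than 1 below it, with a median of 0.42. These were Apoe, Lpl, Apod, Clu and Lrp1. Apod, a lipocalin, was at 360 RPKM in cluster 4, against 365 and 170 in clusters 7 and 1 and 2.91 in cluster 6, and Lrp1, an endocytic receptor for apolipoprotein E, was highest in cluster 4 at 75.1, with 47.1 in cluster 7. Sqle, an enzyme of cholesterol synthesis, had a smaller log2 difference of 0.43 and was not highest in cluster 4.

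Of 16 secreted antagonists of BMP and Wnt signals, 14 had 50 counts in cluster 4, 8 of these were more than 1 above the median (against 2.79% of all genes), 0 more than 1 below it and 9 highest in cluster 4 (against 8.79% of all genes). Their summed level was 1285 RPKM in cluster 4 and 1543 in cluster 3, of which the Wnt antagonist Sfrp4 made 344 and 1329. Sfrp2, a Wnt antagonist, was at 302 RPKM in cluster 4 and at 127, 51.7, 15.2, 157, 1.43 and 179 in clusters 1, 2, 3, 5, 6 and 7. Fst, which binds activin, was at 98.4 RPKM against 63.5 in cluster 1 and 47.9 in cluster 7. Sfrp1 (17.2 RPKM), Wif1 (377) and Dkk2 (13.2), which limit Wnt signals, and the BMP antagonist Grem1 (4.26) were also highest in cluster 4, at log2 differences of 0.67, 0.42, 0.67 and 0.87 from the highest library. Frzb was at 27.2 RPKM, below 31.3 in cluster 6. Nog, another BMP antagonist, did not share this pattern (2.95 RPKM, against 30.8 in cluster 2).

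Complement genes had a median log2 difference of 1.45 over the 14 of 17 that had 50 counts and 1.18 over all 17, against -0.02 for all genes. Of the 14, 9 were more than 1 above the median (against 2.79% of all genes), 0 more than 1 below it and 8 highest in cluster 4 (against 8.79% of all genes). Serping1, the inhibitor of the first component, was at 735 RPKM in cluster 4 and at 318, 56.7, 270, 200, 7.22 and 547 in clusters 1, 2, 3, 5, 6 and 7. C3, the central component, was at 71.9 RPKM, close to 67.8 in cluster 7, and Cfb, a protease of the alternative pathway, at 20.4 against 11.4 in cluster 7. C7, a component of the membrane attack complex, was at 24.9 RPKM, below 36.4 in cluster 7, and at 0 counts in cluster 6. The regulator Cd55, which protects cells, was not above the median, at a log2 difference of -0.50.

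Of 30 NF-kB and inflammatory genes, 29 had 50 counts, 8 were more than 1 above the median (against 2.79% of all genes), 0 more than 1 below it and 11 highest in cluster 4 (against 8.79% of all genes), with a median of 0.70. Il6 was at 191 RPKM in cluster 4 and at 79.8, 19.7, 42.6, 67.6, 5.12 and 138 in clusters 1, 2, 3, 5, 6 and 7. Cx3cl1, a membrane-bound chemokine, was at 17.0 RPKM against 12.1 in cluster 7. Without cluster 2, 5 genes of this list were past 1. The inflammatory chemokines Ccl2 (240 RPKM) and Ccl7 (451) were highest in cluster 3, at 1284 and 1109. Nfkbia, an inhibitor induced by NF-kB, was at 922 RPKM, below 1107 in cluster 1 and 1001 in cluster 3. Of 24 immediate early and heat shock genes, which respond to handling of cells among other stimuli, 1 (Nr4a1) was more than 1 above the median, a share near the 2.79% of all genes, and 0 below it, with a median of 0.40. Fos was at 2243 RPKM in cluster 4, between 2611 in cluster 7 and 1393 in cluster 3. Without cluster 1 or cluster 7, 4 of the 24 were past 1. The part of these genes in the values of the NF-kB list was not tested.

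**Figure D4:**
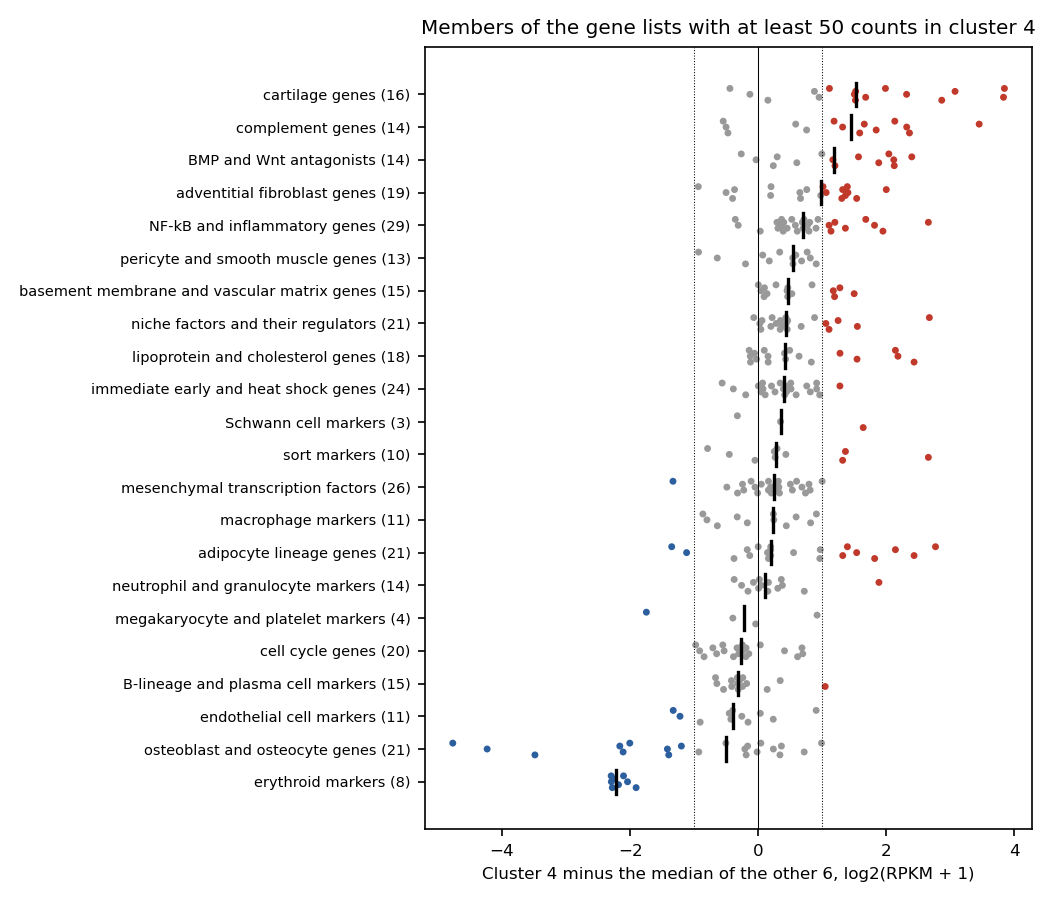
Log2 difference of cluster 4 from the median of the other 6 libraries (horizontal axis, log2(RPKM + 1)) for the members of each gene list with at least 50 counts in cluster 4, whose number is in brackets, for lists with at least 3 such members. Each point is 1 gene, coloured where the difference is above 1 or below -1, and the bars mark list medians, which run from 1.52 for cartilage genes to -2.23 for erythroid markers.

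Of 16 cartilage genes, all with 50 counts, 11 were more than 1 above the median (against 2.79% of all genes), 0 more than 1 below it and 2 (Cytl1 and Chad) highest in cluster 4, a share near the 8.79% of all genes, with a median of 1.52. The summed level of the 16 genes in cluster 4, 11738 RPKM, was below those in clusters 2 (18569) and 6 (21157) and above those in cluster 3 (5010), where Prg4 made 2523, and in clusters 1, 5 and 7 (1341, 1983 and 3016). Col2a1, which encodes type II collagen, was at 3077 RPKM in cluster 4 and at 195, 9608, 136, 233, 10691 and 185 in clusters 1, 2, 3, 5, 6 and 7. Acan, the gene of aggrecan, was at 50.2 RPKM in cluster 4, 354 in cluster 6, 320 in cluster 2 and at most 12.9 in the other 4 libraries. For these 2 genes, cluster 4 thus lay between clusters 2 and 6 and the other 4. Col11a1, a fibrillar collagen, and Sox5, a partner of Sox9, had another order, at 61.4 and 2.59 RPKM in cluster 4 and 95.02 and 4.40 in cluster 3, with log2 differences of -0.44 and -0.13 from the median. The share of the highest library differed between genes, as did that library itself. The ratio of cluster 4 to the highest library was 0.288 for Col2a1, 0.147 for Col9a1, 0.142 for Acan, 0.0588 for Col10a1, a collagen of hypertrophic chondrocytes, and 0.0335 for Matn1, a matrilin of mature cartilage. It was 0.551 for Sox9, the transcription factor of chondrocytes, at 98.1 RPKM. The highest library was cluster 6 for Col2a1 and Acan, and cluster 2 for Col9a1, Col10a1, Matn1 and Sox9.

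Cytl1, a secreted cytokine-like protein of cartilage, differed from these genes in order. It was at 1998 RPKM in cluster 4 and at 15.8, 358, 209, 68.4, 884 and 93.2 in clusters 1, 2, 3, 5, 6 and 7. The ratio to cluster 6 was 2.26 (2.23 to 2.29), and the log2 difference from cluster 6 was 1.18, or as low as 0.86 with TMM or DESeq2 scaling. Without cluster 6, the log2 difference from the highest library was 2.48. Chad, a cartilage proteoglycan of the leucine-rich family, was at 2790 RPKM in cluster 4 and 2726 in cluster 6, and Prg4, the lubricant of joint surfaces, at 1091 in cluster 4 and 2523 in cluster 3. Gpha2, a glycoprotein hormone subunit, had the largest log2 difference from the median of the other 6 libraries, 4.12. Over all settings tried, this value ran from 3.28 to 4.97, and that of Col2a1 from 3.72 to 4.03, so that the rank depended on the libraries used. Gpha2 was at 79.8 RPKM in cluster 4 and at 1.59, 25.5, 0.925, 46.6, 0.541 and 7.33 in clusters 1, 2, 3, 5, 6 and 7, an order unlike that of the cartilage genes. Of the 15 genes with the largest log2 difference from the median, Col2a1, Lect1, Ucma, Col9a3, Col9a2, Scrg1, Mia1, Chadl and Col9a1 were highest in cluster 2 or 6, with log2 differences of -1.02 to -3.01 from the highest library. Inmt (83.4 RPKM), a methyltransferase, Dpep1 (74.8), a dipeptidase, and Entpd2 (111), an ectonucleotidase, were highest in cluster 4, followed by cluster 7 or 1.

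Some bone genes were lower, among them Bglap and Col1a1. Of 22 osteoblast and osteocyte genes, 21 had 50 counts, and 9 of these were more than 1 below the median (against 0.732% of all genes). Of the 21, 0 were more than 1 above it and 0 highest in cluster 4, with a median of -0.50. This median was -0.28 with TMM, -0.33 with DESeq2 and -0.26 with the 3 loci kept, each with 1 gene more than 1 above. Bglap, the gene of osteocalcin, was at 192 RPKM in cluster 4 and at 259, 3543, 14245, 7821, 11190 and 276 in clusters 1, 2, 3, 5, 6 and 7. It was lowest in cluster 4, 74.1-fold (71.8 to 76.5) below cluster 3 and 1.35-fold (1.29 to 1.41) below cluster 1, and Bglap2 was at 196 RPKM. The split between these near-identical genes is uncertain. Sp7, the transcription factor of osteoblasts, was at 3.42 RPKM, above 2.32 in cluster 1 and below 39.2 in cluster 6. Ifitm5, a membrane protein of osteoblasts, and Dmp1, a matrix protein of osteocytes, had log2 differences of -3.49 and -2.16, at 4.38 and 10.05 RPKM, and both were lower in cluster 1.

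Some other bone genes were within 1 of the median. Runx2, which acts earlier than Sp7, was at 5.78 RPKM, a log2 difference of -0.02, Alpl, the alkaline phosphatase of mineralisation, at 81.4 (-0.19), and Ibsp, bone sialoprotein, at 683 (0.24). Sparc, the collagen-binding osteonectin, was at 9082 RPKM (0.34), and Omd, a small proteoglycan of bone, at 144 (0.99). Col1a1, by contrast, was among the 9 lower genes, with a log2 difference of -1.42, and was lowest in cluster 4 at 1982 RPKM, with 2603 in cluster 7 and 16180 in cluster 6. Clusters 1 and 7 shared the low levels of Bglap, Ifitm5 and Dmp1, so that these genes set clusters 1, 4 and 7 against clusters 2, 3, 5 and 6.

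**Figure D5:**
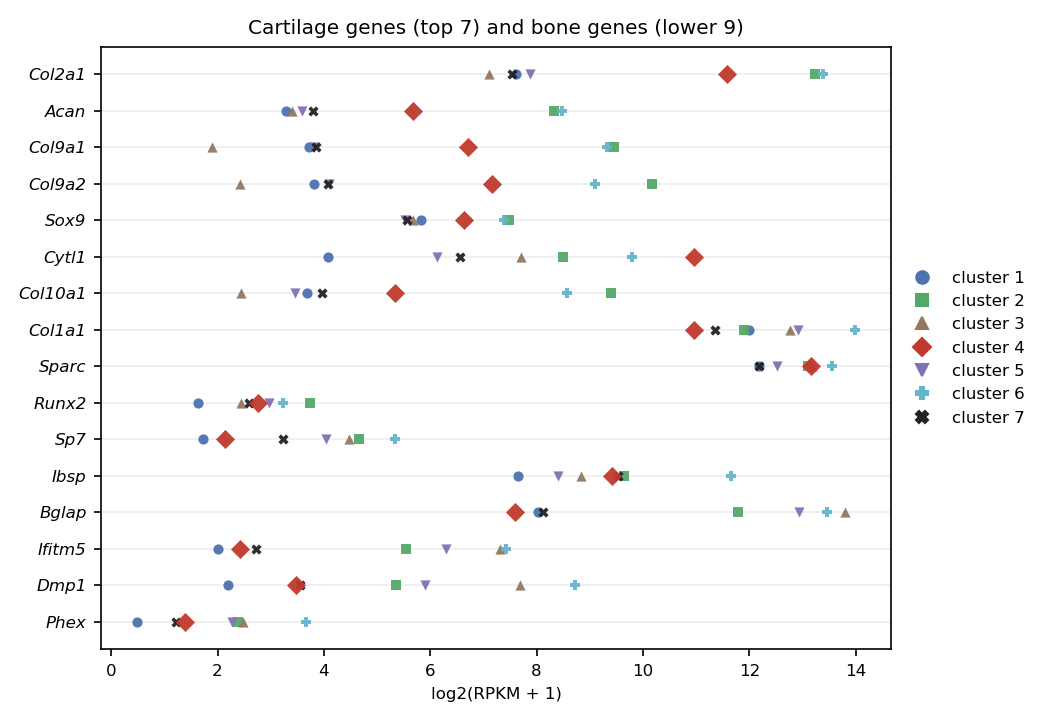
Level of 7 cartilage genes and 9 bone genes in each of the 7 sorted libraries, as log2(RPKM + 1) (horizontal axis). Cluster 4 lies between clusters 2 and 6 and the other libraries for Col2a1, Acan, Col9a1, Col9a2, Sox9 and Col10a1, is highest for Cytl1, and lies among the lowest for Bglap, Ifitm5 and Dmp1.

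Genes of adventitial fibroblasts summed to 16810 RPKM in cluster 4, the highest of the 7 libraries, next to 16353 in cluster 7 and 16082 in cluster 1, and to 9290 without the most abundant gene, below 9911 in cluster 7. All 19 listed had 50 counts, 9 were more than 1 above the median (against 2.79% of all genes), 0 more than 1 below it and 1, Gsn, was highest in cluster 4 (against 8.79% of all genes), with a median of 0.98. Because 3 libraries (clusters 1, 3 and 7) were high and 3 were low for many of these genes, the count was 3 without cluster 2, 5 or 6 and 12 without cluster 1, 3 or 7. Gsn, an actin-severing protein, was at 7520 RPKM in cluster 4 and at 6886, 599, 3181, 1111, 384 and 5931 in clusters 1, 2, 3, 5, 6 and 7. Pi16 (23.1 RPKM), a peptidase inhibitor of universal fibroblasts, and Cd34 (57.6) were below cluster 1, at 30.6 and 125. Dpp4, another marker of these cells, was at 1.09 RPKM against 21.2 in cluster 3.

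Of 14 pericyte and smooth muscle genes, 13 had 50 counts, 0 were past 1 in either direction and the median was 0.54, although 3 were past 1 without cluster 1, 5 or 7. Abcc9, a potassium channel subunit of pericytes, was at 3.22 RPKM, the highest of the 7 libraries, next to 2.77 in cluster 5, and Rgs5, a pericyte signalling regulator, was at 2.55 against 16.8 in cluster 3. Of 15 basement membrane genes, all with 50 counts, 4 were more than 1 above the median (against 2.79% of all genes) and 0 were highest in cluster 4. Col4a1 was at 99.3 RPKM, between 150 in cluster 1 and 91.5 in cluster 7. Of 26 mesenchymal transcription factors, all with 50 counts, 0 were more than 1 above the median, 1 was more than 1 below it (Mef2c, 2.55 RPKM, the lowest of the 7, against 0.732% of all genes) and the median was 0.24. Without cluster 1 or 7, 3 were more than 1 above the median.

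Erythroid genes were low in cluster 4. Of 12 listed, 11 were measured and 8 had 50 counts, and all 8 were more than 1 below the median (against 0.732% of all genes), with a median of -2.23. Car2, carbonic anhydrase 2, of red cells, osteoclasts and other cells, was the 1 gene more than 1 below every library. It was at 3.84 RPKM in cluster 4 and at 22.4, 28.2, 22.6, 156, 18.6 and 19.8 in clusters 1, 2, 3, 5, 6 and 7, and the lowest other level was 4.84-fold (4.27 to 5.50) that of cluster 4. Car1, its red cell relative, had 2 counts in cluster 4 and was at 2.63 to 49.0 RPKM elsewhere. Slc4a1, the band 3 anion exchanger, was at 0.539 RPKM against 2.06 in cluster 6 and 23.3 in cluster 5. The haemoglobin genes were not lowest in cluster 4, since Hba-a1 was at 858 RPKM there and 601 in cluster 6. The summed level of the 11 genes was 2288 RPKM in cluster 4 and 14875, 14901, 7478, 105316, 1637 and 7458 RPKM in clusters 1, 2, 3, 5, 6 and 7. Cluster 4 was thus among the 2 libraries with the least erythroid RNA, and without cluster 6 there were 10 genes more than 1 below every library, and 6 without cluster 1.

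Genes with under 50 counts in cluster 4 and at least 50 in each other library numbered 19. Beside Car1 they included the red cell genes Trim10 (32 counts), Hemgn (25), Klf1 (29) and Rhag (1), the muscle gene Mylpf (34) and Lpar3 (27), a receptor of lysophosphatidic acid at 0.340 RPKM in cluster 4 and 12.1 in cluster 6. Acta1, skeletal muscle actin, was at 1.01 RPKM in cluster 4, 1.98 in cluster 7, 3.92 in cluster 1 and 30.3 to 77.7 in the other 4. Proliferation genes did not pass the limit. Of 20 cell cycle genes, all with 50 counts, 0 were past 1 in either direction, the median was -0.28 (-0.14 with TMM scaling), and their sum was 712 RPKM, the second highest of the 7 libraries, of which Cdkn1a, an inhibitor of the cycle, made 402, and without it 309, the fifth of the 7. Of the 20, 5 were lowest in cluster 4 (against 9.31% of all genes), and 1 was more than 1 below the median with DESeq2 scaling. Mki67, a marker of dividing cells, was lowest in cluster 4 at 3.14 RPKM, with 5.48 in cluster 7 and 13.0 in cluster 5. Malat1, a nuclear RNA, held 0.222% of the counts in cluster 4, 0.118% in cluster 6, 0.241% in cluster 7 and 0.541% to 1.10% in the other 4.

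Transcripts of blood cells were present in cluster 4 despite the CD45 gate, at levels within those of the other libraries. All 14 neutrophil markers had 50 counts and 0 were at 0, their sum was 18492 RPKM, against 11528 in cluster 3 and 41971 in cluster 5, and the most abundant, S100a9, was at 6923. The sum for 14 macrophage markers was 2254 RPKM, mostly Lyz2 (1879), against 4485 in cluster 7, and C1qa, a defining macrophage gene, was at 1.67. The 16 B-lineage markers summed to 313 RPKM against 176 to 571 elsewhere, led by Igkc (102), and the 13 T and NK markers to 31.9, of which Nkg7 made 25.5 and only Nkg7 had 50 counts. Of the members with 50 counts in these 4 lists (14, 11, 15 and 1), Mmp9, a neutrophil gelatinase at 85.3 RPKM in cluster 4 and 130 in cluster 7, and Sdc1, syndecan 1, at 39.3 and 37.5, were more than 1 above the median, a share near the 2.79% of all genes, and 0 were more than 1 below it. Fibroblasts and other stromal cells also express Sdc1.

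Of 14 endothelial markers, 11 had 50 counts and 2 (Esam and Tie1) were more than 1 below the median (against 0.732% of all genes). Their sum was 47.2 RPKM in cluster 4, mostly Ramp2 (28.8), and 9.35 to 87.3 elsewhere, and Cdh5, which defines endothelial junctions, was at 0.236 RPKM (32 counts), between 0.213 in cluster 6 and 0.660 in cluster 7. The 8 megakaryocyte markers summed to 19.6 RPKM, led by Pf4 (10.2), and of the 4 with 50 counts Pf4 was more than 1 below the median (against 0.732% of all genes). The 8 Schwann cell markers summed to 41.7 RPKM, of which S100b, also a cartilage gene and more than 1 above the median, made 39.2, and Sox10, their defining gene, had 3 counts. The part of these other cell types in the stromal values was not tested.

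The 373 genes, which were chosen for being high in cluster 4, had their smallest median log2 difference from cluster 7. It was 0.66 from cluster 7, 1.02 from cluster 1, 1.24 from cluster 5, and 1.599, 1.80 and 1.97 from clusters 2, 3 and 6. Of the 373, 136 were more than 1 above cluster 7 and 0 more than 1 below it, whereas 283 were more than 1 above cluster 2 and 36 more than 1 below it. Over all 13386 genes, 252 were more than 1 above cluster 7 and 337 more than 1 below it, and 351 were more than 1 above cluster 1 and 225 more than 1 below it. By these counts, neither was plainly closer. The study used another measure, clustering and principal components of expression, and reports cluster 4 as most similar to cluster 1, followed by clusters 3 and 7. Against cluster 3, 754 genes were more than 1 above and 354 more than 1 below, more each way than against cluster 1 or 7. Against cluster 6, 1490 genes were more than 1 above and 387 more than 1 below. All 13386 genes were filtered on the counts of cluster 4, and their median log2 difference from cluster 6 was 0.21, the largest of the 6. The TMM factor was 0.772 for cluster 6 and 0.956 for cluster 4, and these counts were not repeated with it. Of the 98 lower genes, which were chosen for being low in cluster 4, 44 were lowest in it. The choice itself raises this share above the 9.31% of all genes, so that no conclusion is drawn from it. The 98 had their highest level most often in cluster 5 (34), cluster 6 (33) and cluster 3 (16). Among all genes, the highest other library was cluster 5 for 13.2%, cluster 6 for 6.92% and cluster 3 for 8.84%. The next level below cluster 4 was in cluster 5 for Cxcl12 and in cluster 7 for C4b, whereas Col2a1 and Acan were higher in clusters 2 and 6 than in cluster 4.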

How the data were processed

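RNA of 7 sorted bone marrow populations and of input bone marrow was sequenced, with 1 library each. For each Ensembl gene, the authors deposited read counts without normalization, together with exon positions and the summed exon length. In the Methods, reads were trimmed for quality, aligned to mm9 with TopHat2 and expressed as RPKM. The Methods name Partek Flow (version 2.2) for alignment and mapping, and the submitters' processing notes also name Partek. The deposited gene positions are on GRCm38, as 96.2% of 23331 symbols start within 10 kb of their position in RefSeq GRCm38.p6. Which tool counted the reads, whether it used strand and how it treated shared reads is not given in the sources used here.

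The loci Rn18s-rs5, mmu-mir-689-2 and Lars2 were omitted, and RPKM was computed from the remaining total and the exon length. A pseudocount of 1 was added before log2, which understates the ratios of low genes. A gene was called at a log2 difference beyond 1, with at least 50 counts in cluster 4. Total counts of clusters 1 to 7, in this order, were 24205863, 25349917, 27102715, 32549319, 12833648, 31669132 and 33238133, and the input had 20162876. At the depth of cluster 4, 3 counts on 1 kb of exon correspond to 0.0931 RPKM. Ratios have exact binomial (Clopper-Pearson) 95% intervals and shares of counts Wilson intervals, all for counting error only. Since no population had a replicate, edgeR and DESeq2 gave scaling factors only and no p-value was computed.

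The 23 gene lists held 383 symbols, of which 382 were matched, 7 of them by RefSeq synonym or position, and Ahsp was not. The population, the lists and the genes were chosen with earlier results of these data known. The genes named are the 4 markers, list members, the 20 with the largest and the 20 with the most negative difference from the highest and the lowest other library, the 15 at either end of the difference from the median, and 10 genes under 50 counts. Serpina genes, the neighbours of Adipoq and Malat1 were added after their values had been seen. Other pseudocounts, count limits and scalings, and omission of each library, were tried. The calculation was tested on simulated data. Tools were edgeR 4.0.16 and DESeq2 1.42.0 in R 4.3.3, and pandas 2.3.3, numpy 2.4.6, matplotlib 3.10.9 and scipy 1.17.1 in Python 3.11.15.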

Additional observations from a re-analysis of the deposited data

Results flagged for a closer look

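The 3 loci left out of all comparisons (Lars2, Rn18s-rs5 and mmu-mir-689-2) contained 1.01% of all counts in cluster 4, or 328589 counts (95% Wilson interval 1.01% to 1.01%), which is a signal outside the main measurement. Their share was lower in cluster 7 (0.274%) and in the input library (0.188%), and higher in clusters 6 (1.41%), 3 (1.58%), 1 (1.91%), 2 (10.4%) and 5 (34.8%).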

How the results depend on the processing

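For the markers, the genes at either end of the differences and the 10 under 50 counts, no value past 1 changed sign under any alternative. The median over all genes moved from -0.02 to 0.05 (TMM), 0.03 (DESeq2), 0.06 (3 loci kept) and 0.02 (without cluster 1), and that of the megakaryocyte markers from -0.22 to 0.0037 with the 3 loci kept. None of the 90 list genes past 1 changed sign under another scaling. With a pseudocount of 0.1, 39 genes were more than 1 above the highest of the other libraries, 695 above the median, 226 below the median and 6 below the lowest. With no filter on counts, 43 genes were above the highest, 218 below the median and 3 below the lowest, and with at least 200 counts 50 were below the median. Either TMM or DESeq2 scaling gave 2 genes below the lowest. With 1 library omitted in turn, 26 to 49 genes were above the highest, 329 to 561 above the median, 106 to 155 below the median and 1 to 10 below the lowest, with the highest numbers without cluster 7 for the first 3 and without cluster 6 for the last. Of the 24 genes above the highest, 22 remained with TMM or DESeq2 factors (not Cytl1 and Serpina1e), 23 with the 3 loci kept (not Eln), 21 with mitochondrial and haemoglobin genes also omitted (not Cxcl12, Col8a1 and Eln) and 20 at 200 counts. The other counts of genes stayed within 1.5 times, 68 of 84 in all. Of the values of single genes and lists, 1270 moved by less than their counting error or, for counts, by less than 1.5 times, and 692 by more. No paired analysis was possible because the clusters were sequenced once each, and leaving out the library of cluster 4 leaves no comparison. Depth limits genes near 50 counts, for which the ratio to the next library is known only within wide intervals, and differences between sorts could not be measured.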

Other observations

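The input bone marrow library, set here beside cluster 4 alone, had lower levels of the marker genes than cluster 4. Cxcl12 was at 27.0 RPKM in the input and 141 in cluster 4, Adipoq at 6.51 and 29.9, Apoe at 105 and 521, and Icam1 at 89.8 and 239. Cytl1 was at 110 RPKM in the input and 1998 in cluster 4. Ptprc had the other order, at 13.5 and 2.79 RPKM. The macrophage markers likewise summed to 6605 and 2254 RPKM and the neutrophil markers to 45031 and 18492. The erythroid markers did not share this order, with sums of 701 RPKM in the input and 2288 in cluster 4. Megakaryocyte markers summed to 20.4 and 19.6 RPKM.

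Haemoglobin genes held a smaller share of the counts in the input (0.0524%) than in any of the 7 sorted libraries, whose lowest was 0.122% in cluster 6, although the sorted cells were gated as Ter119-negative. Hba-a1 was at 267 RPKM in the input and 858 in cluster 4. At least 50 counts were reached by 18977 genes in the input and by 13386 in cluster 4. These values come from 1 library each, and their cause was not tested.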
